A study of Mus musculus with 4 samples.

Results

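The genes described here are those of fatty acid activation, oxidation, hydrolysis, elongation, desaturation and binding in splenic CD4+CD25+ T cells, the surface phenotype by which regulatory T cells (Tregs) are sorted. They were chosen by gene symbol alone, as the Acsl, Acsbg, Acss, Slc27a, Cpt1, Cpt2, Acad, Hadh, Acox, Acot, Elovl, Fads, Scd and Fabp families, and numbered 69 of the 16383 genes in the table. RNA-seq had been done on 2 Helios KO libraries (Ikzf2-/- mice, 7 weeks old) and 2 WT libraries (mice of the same age), to ask which Treg genes depend on Helios, a zinc finger transcription factor and the product of Ikzf2. The labels do not name the strain, the exons removed from the null allele, or whether each library came from 1 mouse, so errors between libraries may be partly technical. Each value is a normalised read number divided by the median length in kb of the annotated transcripts of the gene. The order of different genes by level therefore depends on that length, which may not be that of the transcript present.

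A fatty acid must first be joined to coenzyme A by an acyl-CoA synthetase before a cell can burn, lengthen, desaturate or store it. Long acyl chains then enter mitochondria through the carnitine shuttle and are shortened by acyl-CoA dehydrogenases and the trifunctional protein, while peroxisomes shorten very long chains and thioesterases release the free acid again. Elongases and desaturases, both in the endoplasmic reticulum, build longer and less saturated chains. Tregs are known to draw on fatty acid oxidation more than effector T cells do.

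In limma over all 11571 tested genes, 0 of the 49 tested fatty acid genes were called changed at an adjusted p under 0.05, and 0% of all tested genes were. The pair of genes nearest to a call lay at the activation step. Acsbg1 was lower in both Helios KO libraries and Acsl3 was higher in both, and these were the 2 members with an unadjusted limma p under 0.05, which 3.34% of all tested genes reached. Limma-voom on recovered reads likewise called 0 members, and 3 had an unadjusted p under 0.05 there, against 3.22% of all genes. Acadl, the third of those, was lower in both knockout libraries but differed widely between them. Of the 49 tested members, 5 lay above both WT libraries in both Helios KO libraries, against 12.5% of all tested genes, and 11 lay below, against 15.7%. As shares of the members these were 10.2% and 22.4%. Among the 5 was Fads2, which passed the filter through the knockout libraries alone. The median log2 fold change of the members was -0.04, beside 0.00 over all tested genes, and 38 of them lay within 0.3 of WT on the log2 scale.

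The libraries held 42157138 to 52543073 recovered reads. Ikzf2, the targeted gene, had values of 4396 and 3104 in the Helios KO libraries, against 5282 and 7864 in the WT libraries (log2 fold change -0.80 (SE 0.28), limma adjusted p 1.00), and reads from exons the null allele may keep cannot be told from those of an intact gene. Summed Treg markers (6 genes, none at 0 in any library) were 161793 and 112234 in the Helios KO libraries and 143969 and 140048 in the WT libraries. Summed T cell markers (5 genes) were 268444 and 237291 in the Helios KO libraries and 260378 and 231758 in the WT libraries. Helios KO replicate 2 stood apart. Summed markers of red pulp macrophages (10 genes) were 115601 there, against 7842 to 8601 in the other 3 libraries, and 9 of the 10 lay over 4-fold above each of those. Summed neutrophil markers (8 genes) were 37356 against 33.7 to 133, with Elane at 0 in all 3 other libraries. Summed monocyte and dendritic markers (5 genes) were 24373 against 1023 to 2004, erythroid markers (5 genes) 11823 against 129.7 to 556, NK markers (4 genes) 10583 against 424 to 676 and platelet markers (4 genes) 2153 against 129.0 to 189. B cell markers (6 genes) were 1782 against 747 to 1359. In such bulk libraries fewer cells of a type and less RNA per cell cannot be told apart. Tested fatty acid genes that stood out in this library are given with and without it where they could be fitted.

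Mean levels of tested members ran from 7.56 for Slc27a2 to 26769 for Acsl5, and a few genes held most of the signal. By its mean over the 4 libraries Acsl5 ranked number 201 of all tested genes. Elovl5 came next at 22909, below Acsl5 without overlap between their libraries. That order rests on the lengths used, 487.5 bases for Acsl5 and 661.5 for Elovl5. In recovered reads Elovl5 was the higher, at 13163 against 11383 in Helios KO replicate 1 and 16619 against 13749 in WT replicate 1. Cpt1a (9639), Acss1 (8930.3) and Acsbg1 (8693) followed with library values that overlapped one another, then Acadvl (6748) and Hadha (6128), which also overlapped. The summed value of the 69 genes was 137823 and 148024 in the Helios KO libraries and 153108 and 149296 in the WT libraries. Of the 69 members, 20 were not tested because fewer than 2 libraries reached a value of 10. Of these, 13 stayed below 10 in every library, and the other 7 reached 10 in Helios KO replicate 2 alone.

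**Figure D1:**
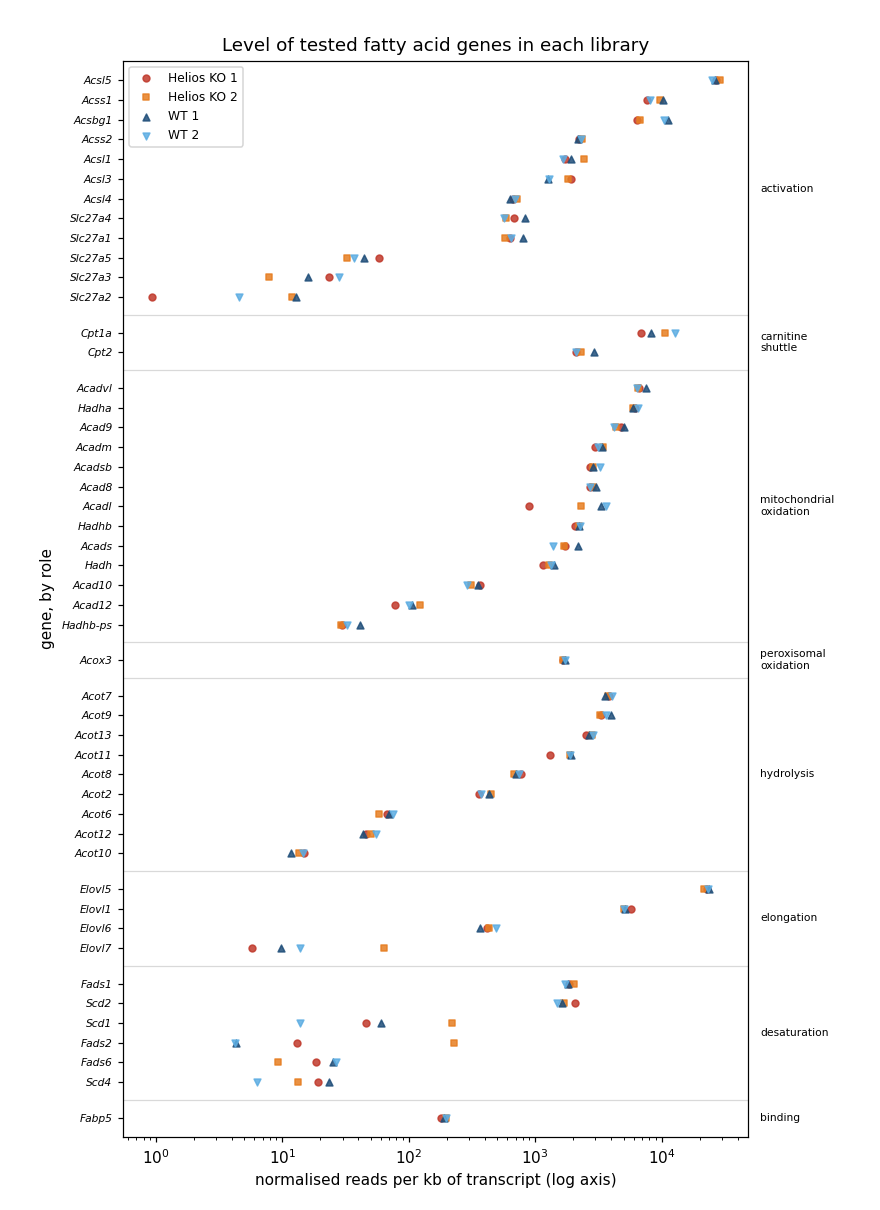
Values of the tested genes reported here in each library, in normalised reads per kb of transcript on a log axis, with genes grouped by role; circles and squares are Helios KO replicates 1 and 2, triangles are the WT libraries. Acsl5 and Elovl5 lie at 21667 or above in every library, Acsbg1 shows both Helios KO symbols left of both WT symbols, and the squares stand apart to the right for Fads2, Scd1 and Elovl7.

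Acsbg1, the bubblegum-type synthetase that activates long and very long fatty acids (ENSMUSG00000032281, chromosome 9, 54604877 to 54661870, minus strand, GRCm38), was the member with the smallest p. Its values were 6349.8 and 6697 in the Helios KO libraries, against 11286 and 10439 in the WT libraries. The genotypes did not overlap, and the libraries within each genotype lay close together. The means were 6523 ± 245 in the knockout and 10862 ± 599 in WT (SD, n = 2 each), a ratio of 0.601, and the log2 fold change was -0.73 (SE 0.10), with a 95% interval of -0.98 to -0.49. The unadjusted limma p was 0.000465, rank 11 of all tested genes, and the adjusted p of 0.427 missed the threshold. Against the WT mean the difference came to -0.77 for Helios KO replicate 1, which had the highest Treg marker sum, and -0.70 for replicate 2. With replicate 1 left out Acsbg1 was called (limma adjusted p of 0.0205), as were 6.63% of all genes. With replicate 2 left out it was not (limma adjusted p of 0.0761). In such fits the spread of the single knockout library is taken from the other genotype.

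Acsl3, a long-chain synthetase of the endoplasmic reticulum and lipid droplets (ENSMUSG00000032883, chromosome 1, 78657825 to 78707743, plus strand), moved the other way. Its values were 1926 and 1819 in the Helios KO libraries, against 1253 and 1279 in the WT libraries, again without overlap between the genotypes. Its means were 1873 ± 75.5 in the knockout and 1266 ± 18.2 in WT (SD, n = 2 each), a ratio of 1.48, and its log2 fold change of 0.56 (SE 0.10) had a 95% interval of 0.31 to 0.82. The limma adjusted p was 0.790, or 0.0887 without Helios KO replicate 1 and 0.183 without replicate 2.

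The opposite differences of Acsbg1 and Acsl3 gave the long-chain synthetase transcripts another make-up, while their sums overlapped between the genotypes. The 8 Acsl and Acsbg genes together summed to 37560 and 40504 in the Helios KO libraries and 41635 and 38980 in the WT libraries, which overlap. Acsbg1 made up 16.9% and 16.5% of that sum in the Helios KO libraries, against 27.1% and 26.8% in the WT libraries. Acsl5, the leading synthetase, made up 71.6% and 71.0% in the Helios KO libraries, against 63.7% and 63.9% in the WT libraries. The ratio of Acsbg1 to Acsl3 was 3.30 and 3.68 in the Helios KO libraries, against 9.01 and 8.16 in the WT libraries. That of Acsbg1 to Acsl5 was 0.236 and 0.233 in the Helios KO libraries, against 0.426 and 0.419 in the WT libraries. These shares restate the values of the genes above and were not tested separately. Their size also depends on the lengths used, 407 bases for Acsbg1 and 4959 for Acsl4. In recovered reads Acsbg1 and Acsl4 had 2244 and 2855 in Helios KO replicate 1, and 4886 and 3362 in WT replicate 1.

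**Figure D2:**
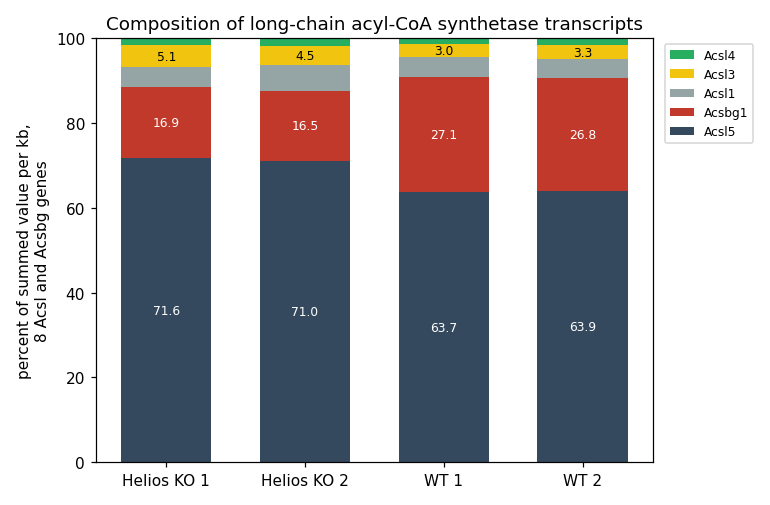
Percent of the summed value per kb of the 8 Acsl and Acsbg genes held by each gene, for the 2 Helios KO libraries at left and the 2 WT libraries at right; the numbers are the percentages of Acsl5, Acsbg1 and Acsl3. Acsbg1 takes 16.9% and 16.5% in the Helios KO libraries and 27.1% and 26.8% in the WT libraries.

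Acsl5 itself, a synthetase of mitochondria and endoplasmic reticulum, differed little. Its values were 26891 and 28769.5 in the Helios KO libraries, against 26515 and 24899 in the WT libraries, with both knockout libraries just above WT (log2 fold change 0.11 (SE 0.10), 95% interval -0.14 to 0.36). Acsl1, the synthetase best known from liver and fat, was at 1719.8 and 2454 in the Helios KO libraries, against 1936 and 1664 in the WT libraries, highest in Helios KO replicate 2 and overlapping otherwise. Acsl4, which prefers arachidonic acid, was at 663 and 719 in the Helios KO libraries, against 637 and 695 in the WT libraries and overlapped. Acsl6, Acsbg2 and Acsbg3 were not tested, and among them the highest value was 31.3 for Acsl6 in Helios KO replicate 2.

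The short-chain synthetases overlapped between the genotypes. Acss1, which makes acetyl-CoA in mitochondria, was at 7693 and 9657 in the Helios KO libraries, against 10254 and 8117 in the WT libraries. Acss2, its cytosolic and nuclear counterpart, was at 2204 and 2355 in the Helios KO libraries, against 2173 and 2307 in the WT libraries, with a 95% interval of -0.23 to 0.28 for the log2 fold change. Among the Slc27a genes, which encode transport proteins with acyl-CoA synthetase activity, Slc27a4 and Slc27a1 were the main members. Slc27a1 was at 631 and 576 in the Helios KO libraries, against 804 and 645 in the WT libraries, below WT in both knockout libraries (log2 fold change -0.26 (SE 0.16), limma adjusted p 1.00; -0.10 without WT replicate 1), and Slc27a4, at 675 and 593 in the Helios KO libraries, against 826 and 566 in the WT libraries, overlapped. Slc27a2 was at 0.926 and 11.9 in the Helios KO libraries, against 12.8 and 4.51 in the WT libraries, which is 1 and 15 recovered reads in the Helios KO libraries and 17 and 6 in the WT libraries. No genotype difference was detectable for it at this depth. Its log2 fold change was -0.81 (SE 1.26) with all libraries and 0.57 without Helios KO replicate 1, and without replicate 2 it did not reach the filter. Slc27a5, the bile acid ligase of liver, was at 57.9 and 32.5 in the Helios KO libraries, against 44.5 and 37.1 in the WT libraries, and Slc27a3 was at 23.4 and 7.85 in the Helios KO libraries, against 15.9 and 27.9 in the WT libraries, and both overlapped.

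Acadl, the long-chain acyl-CoA dehydrogenase of mitochondrial β-oxidation (ENSMUSG00000026003, chromosome 1, 66830839 to 66863277, minus strand), had the lowest fold change of all tested members. It was at 893 and 2309 in the Helios KO libraries, against 3330.3 and 3640.3 in the WT libraries. The genotypes did not overlap, but the knockout libraries lay further from each other than replicate 2 lay from WT. The log2 fold change was -1.28 (SE 0.56), with a 95% interval of -3.05 to 0.49 and a limma adjusted p of 1.00. Against the WT mean the log2 difference came to -1.96 for Helios KO replicate 1 and -0.59 for replicate 2. Acadl was the one member called with either knockout library left out, at a limma adjusted p of 0.00163 without replicate 2, where 0.353% of all genes were called, and of 0.0461 without replicate 1. The ratio of Acadl to Acadm, the medium-chain enzyme of the same step, was 0.299 and 0.668 in the Helios KO libraries, against 0.993 and 1.15 in the WT libraries.

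Acadl and Acsl3 are the 2 members on chromosome 1, where Ikzf2 also lies (69531214 to 69687245). The gap to Ikzf2 is 2.67 Mb for Acadl and 8.97 Mb for Acsl3. Among the 80 other tested genes centred within 10 Mb of Ikzf2, which leaves out both members, 12.5% lay above WT in both knockout libraries and 13.8% below. Over the tested genes of other chromosomes that are not members these shares were 12.5% and 15.5%. An unadjusted limma p under 0.05 was reached by 5% of these 80 genes, by 5.19% of those on the rest of chromosome 1 and by 3.21% of those on other chromosomes. Within 5 Mb, 12.1% of 33 such genes lay above WT in both knockout libraries, 15.2% lay below, and 9.09% reached that p. Within 20 Mb, 12.2% of 164 such genes lay above, 19.5% lay below, and 6.1% reached it. Next to Acadl among tested genes, Lancl1 and Kansl1l were lower in both knockout libraries, as was Map2, 3.30 Mb from the centre of Ikzf2. Lancl1 was at 1186 and 1432 in the Helios KO libraries, against 2099 and 2041 in the WT libraries. Map2 was at 2.72 and 8.17 in the Helios KO libraries, against 27.7 and 42.5 in the WT libraries. Rpe, between Map2 and Kansl1l, overlapped. Of the 33 genes within 5 Mb, 4 lay above and 5 below. The windows were chosen after the values were seen, and the part of the genetic background around the null allele was not tested.

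**Figure D3:**
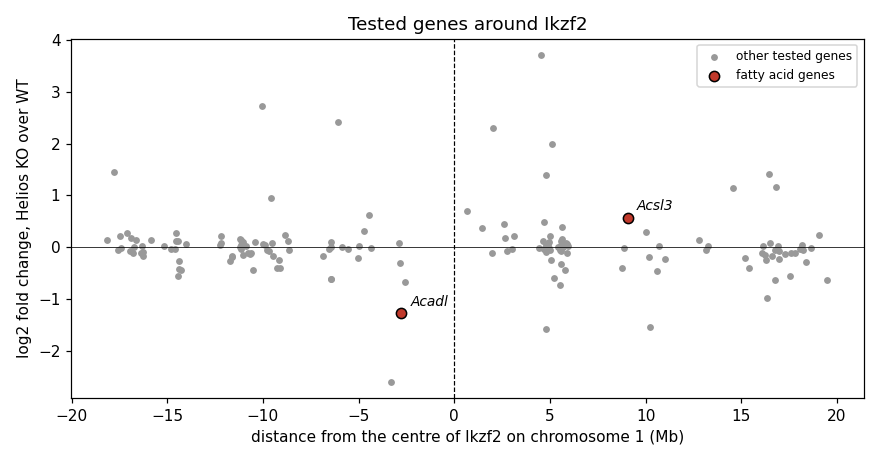
Log2 fold change, Helios KO over WT, of tested genes on chromosome 1 against their distance in Mb from the centre of Ikzf2 (dashed line); red points are Acadl and Acsl3, grey points are other tested genes. Acadl lies at -1.28 and Acsl3 at 0.56, on opposite sides of Ikzf2 and of 0.

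The sequences around the starts of Acsbg1, Acsl3 and Acadl are shown, 3 genes chosen by name with earlier results of these data known. They were also the 3 members with an unadjusted limma-voom p under 0.05, 2 of them lower and 1 higher in the knockout. Each line gives 300 bases, from 250 before the start to 50 after it, from RefSeq on GRCm38.p6, with the Ikaros family core GGGAA (either strand) in capitals. The window of Acsbg1 is chr9:54661836-54662135 (minus strand), that of Acsl3 is chr1:78657575-78657874 (plus strand) and that of Acadl is chr1:66863260-66863559 (minus strand).
Acsbg1: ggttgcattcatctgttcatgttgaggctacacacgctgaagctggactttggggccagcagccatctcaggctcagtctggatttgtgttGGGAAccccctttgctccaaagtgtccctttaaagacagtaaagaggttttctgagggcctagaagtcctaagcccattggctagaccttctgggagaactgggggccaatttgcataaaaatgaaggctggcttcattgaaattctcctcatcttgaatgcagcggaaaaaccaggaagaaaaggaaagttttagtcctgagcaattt
Acsl3: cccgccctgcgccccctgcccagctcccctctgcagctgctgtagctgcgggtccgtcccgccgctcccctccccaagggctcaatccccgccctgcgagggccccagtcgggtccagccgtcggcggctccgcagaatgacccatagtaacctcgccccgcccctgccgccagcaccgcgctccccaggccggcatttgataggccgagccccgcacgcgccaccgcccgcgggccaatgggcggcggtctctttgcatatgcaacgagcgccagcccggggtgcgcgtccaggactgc
Acadl: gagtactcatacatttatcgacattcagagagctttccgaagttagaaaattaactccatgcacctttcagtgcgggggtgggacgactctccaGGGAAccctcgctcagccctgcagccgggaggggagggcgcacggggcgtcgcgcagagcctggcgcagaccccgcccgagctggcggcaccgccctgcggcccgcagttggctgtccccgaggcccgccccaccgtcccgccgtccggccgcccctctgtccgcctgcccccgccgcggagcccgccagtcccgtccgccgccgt

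GGGAA occurs 1 time in the Acsbg1 window, 1 time in the Acadl window and 0 times in that of Acsl3. It occurs in 62.7% of the 32851 windows of this kind in the genome, so its presence sets no gene apart. Of the 69 members, 52 (75.4%) matched that table, under the 80% needed here for a share over the members, so none is given. The GC box GGGCGG, counted on both strands, occurs 5 times in the Acsl3 window, 4 times in the Acadl window and 0 times in that of Acsbg1, and it occurs in 35.7% of all windows. GC content is 74.0% for Acsl3, 70.3% for Acadl and 47.0% for Acsbg1, against a median of 52.7% over all windows. The sterol regulatory element TCACNCCAC, on either strand, occurs 0 times in these 3 windows and in 1.24% of all windows. No GGGAA of these windows overlaps a GC box, and matching letters are a description only.

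Apart from Acadl, the genes of mitochondrial β-oxidation differed from WT by less than 0.3 on the log2 scale, except for the low pseudogene Hadhb-ps. Of 13 tested members, 3 lay lower in both knockout libraries (Acadl, Hadh and Hadhb-ps), 0 lay higher and 10 overlapped, and 12 of 13 fold changes were below 0. Over all 11571 tested genes 15.7% lay lower, 12.5% lay higher and 5825 fold changes were below 0. The median log2 fold change of the 13 members was -0.06. Acadvl, the very-long-chain dehydrogenase and the highest of the group, was at 6578 and 6532 in the Helios KO libraries, against 7547 and 6335 in the WT libraries (log2 fold change -0.08 (SE 0.12)). Hadh, the 3-hydroxyacyl-CoA dehydrogenase, was at 1154 and 1283 in the Helios KO libraries, against 1401 and 1329 in the WT libraries (log2 fold change -0.17 (SE 0.12)), with a limma adjusted p of 1.00. Hadha and Hadhb encode the trifunctional protein and start next to each other on opposite strands. Hadha was at 6132 and 5979.9 in the Helios KO libraries, against 5917 and 6481 in the WT libraries, and the 95% interval of its log2 fold change was -0.28 to 0.21. Hadhb was at 2056 and 2236 in the Helios KO libraries, against 2215 and 2257 in the WT libraries, with an interval of -0.31 to 0.19. These 2 genes of one complex thus both overlapped between the genotypes. Reads of Hadhb and of Hadhb-ps, a processed copy at 29.8 and 29.1 in the Helios KO libraries, against 41.5 and 32.8 in the WT libraries, may have been shared by the counting.

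The medium- and short-chain dehydrogenases overlapped as well. Acadm was at 2992 and 3458 in the Helios KO libraries, against 3352 and 3153 in the WT libraries. Acads, the short-chain enzyme, was at 1719 and 1687 in the Helios KO libraries, against 2200.3 and 1388 in the WT libraries, and its WT libraries enclosed both knockout libraries. Acad9, which also assists assembly of respiratory complex I, was at 4751 and 4382 in the Helios KO libraries, against 5025 and 4208 in the WT libraries. Acadsb and Acad8, which act on branched chains from amino acids, had log2 fold changes of -0.12 (SE 0.11) and -0.04 (SE 0.11). Acad10 and Acad12 had 0.08 (SE 0.20) and -0.09 (SE 0.33).

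Cpt1a, the outer-membrane carnitine palmitoyltransferase and the rate-setting enzyme of mitochondrial entry, varied more within the genotypes than between them. It was at 6833 and 10666 in the Helios KO libraries, against 8259 and 12799.8 in the WT libraries. Both replicates numbered 1 were low and both numbered 2 were high, and the genotypes overlapped, the log2 fold change being -0.27 (SE 0.34), with a 95% interval of -1.26 to 0.73. The labels do not say that the number marks a shared day or litter. Its inner-membrane partner Cpt2 was at 2109.6 and 2311 in the Helios KO libraries, against 2940.0 and 2112 in the WT libraries, with 1 WT library above the other 3, and Cpt1c stayed below 10 in every library.

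Acox3, a peroxisomal oxidase of branched chains, was at 1661 and 1675 in the Helios KO libraries, against 1717 and 1738 in the WT libraries, with the knockout libraries below WT at a ratio of 0.966 (log2 fold change -0.05 (SE 0.10)). It did not pass the test, and the difference was small beside that of Acsbg1 or Acsl3.

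Of 9 tested thioesterases, which cleave acyl-CoA to free acid, 3 lay lower in both knockout libraries (15.7% over all tested genes), 0 lay higher (12.5% over all) and 6 overlapped. Acot7, the cytosolic long-chain enzyme and the highest of the group, was at 3865 and 3790.2 in the Helios KO libraries, against 3586 and 4069 in the WT libraries, with a 95% interval of -0.26 to 0.27. Acot9, a mitochondrial thioesterase, was at 3347 and 3270.2 in the Helios KO libraries, against 4009 and 3619 in the WT libraries. Its log2 fold change of -0.20 (SE 0.10) had a limma adjusted p of 1.00. Acot11 was at 1312 and 1871 in the Helios KO libraries, against 1929 and 1873 in the WT libraries, so that only Helios KO replicate 1 was clearly low. The third, Acot6, was at 67.4 and 58.7 in the Helios KO libraries, against 69.5 and 74.8 in the WT libraries, and it and Acot2 belong to a cluster of near-identical Acot genes on chromosome 12 whose reads may be split between copies. Acot1, Acot3 and Acot5 were not analysed here. Acot8, Acot13, Acot2, Acot12 and Acot10 overlapped, with log2 fold changes of -0.00, -0.06, -0.01, -0.02 and 0.12.

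Elongation was dominated by Elovl5, which lengthens polyunsaturated chains. It was at 22917 and 21667 in the Helios KO libraries, against 23619.5 and 23431 in the WT libraries, both knockout libraries being slightly lower (log2 fold change -0.08 (SE 0.09), 95% interval -0.31 to 0.16). Elovl5 held 78.9% and 79.5% of the summed Elovl value in the Helios KO libraries, against 81.1% and 80.8% in the WT libraries. Elovl1, which makes very long saturated chains, was at 5716 and 5071 in the Helios KO libraries, against 5106 and 5076 in the WT libraries, and Elovl6, which extends palmitate, was at 418 and 435 in the Helios KO libraries, against 369 and 488 in the WT libraries; both overlapped. Elovl7 was at 5.79 and 64.1 in the Helios KO libraries, against 9.75 and 13.8 in the WT libraries, high in Helios KO replicate 2 alone. Its log2 fold change was 0.74 (SE 1.17) with all libraries. It was 2.37 without Helios KO replicate 1 (limma adjusted p of 0.0492), and without replicate 2 it did not reach the filter.

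Among desaturases, the 2 most abundant genes were slightly higher in both knockout libraries and 4 rarer ones were uneven. Scd2, a stearoyl-CoA Δ9-desaturase, was at 2073 and 1687 in the Helios KO libraries, against 1628 and 1484 in the WT libraries (log2 fold change 0.27 (SE 0.14), limma adjusted p 1.00). Fads1, the Δ5-desaturase of polyunsaturated chains, was at 1868 and 2046 in the Helios KO libraries, against 1807 and 1714 in the WT libraries (0.15 (SE 0.11) on the log2 scale). Neither passed the test. Fads6 was at 18.5 and 9.26 in the Helios KO libraries, against 25.3 and 26.8 in the WT libraries and was lower in both knockout libraries (-0.93 (SE 0.60)), with 32 to 98 recovered reads a library, and Scd4, at 19.1 and 13.3 in the Helios KO libraries, against 23.6 and 6.29 in the WT libraries, overlapped.

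Some desaturases and binding proteins were highest in Helios KO replicate 2. Fads2, the Δ6-desaturase and neighbour of Fads1 and Fads3 on chromosome 19, was at 13.1 and 229.7 in the Helios KO libraries, against 4.28 and 4.26 in the WT libraries. In recovered reads this was 10 and 204 in the Helios KO libraries and 4 and 4 in the WT libraries. Fads2 is the 1 tested member that passed the filter through the knockout libraries alone, and its log2 fold change of 3.44 (SE 1.44) had a limma adjusted p of 1.00. With either knockout library left out, Fads2 did not reach the filter. Fads3 was at 0 and 121 in the Helios KO libraries and at 0 and 0.812 in the WT libraries, and so was not tested. Scd1 was at 46.1 and 219 in the Helios KO libraries, against 60.2 and 13.7 in the WT libraries. Its log2 fold change was 1.76 (SE 1.11) with all libraries and 0.65 without Helios KO replicate 2, and it was not called in either fit. Fabp4, the fatty acid binding protein of adipocytes and macrophages, was at 0 and 31.3 in the Helios KO libraries and at 4.03 and 2.92 in the WT libraries.

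In all, 10 members had a value of at least 10 in that library and lay at least 2-fold above each other library on the log2(value + 1) scale. That is 10 of 69, against 8% of all 16383 genes of the table. At a 4-fold difference 5 members remained (Fads2, Fads3, Fabp4, Fabp1 and Elovl7), against 5.45% of all genes. Besides Fads2, Fads3, Scd1, Elovl7, Fabp4 and Acsl6 the 10 members at the 2-fold difference were Acsbg3, Slc27a6, Fabp1 and Acot4, at 13.1, 29.1, 12.5 and 24.5 there. Markers of other blood cells were also high in that library. The 10 members were picked for a high value there, so this likeness was fixed by the choice. Csf1r, the receptor of the macrophage growth factor, was at 226 and 19446 in the Helios KO libraries and at 473 and 802 in the WT libraries. The part of those cells in the values of the 10 genes was not tested. Fabp5, the epidermal-type binding protein and the main Fabp gene of these cells, was at 182 and 198 in the Helios KO libraries, against 190.0 and 198 in the WT libraries, and so did not stand out in that library.

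**Figure D4:**
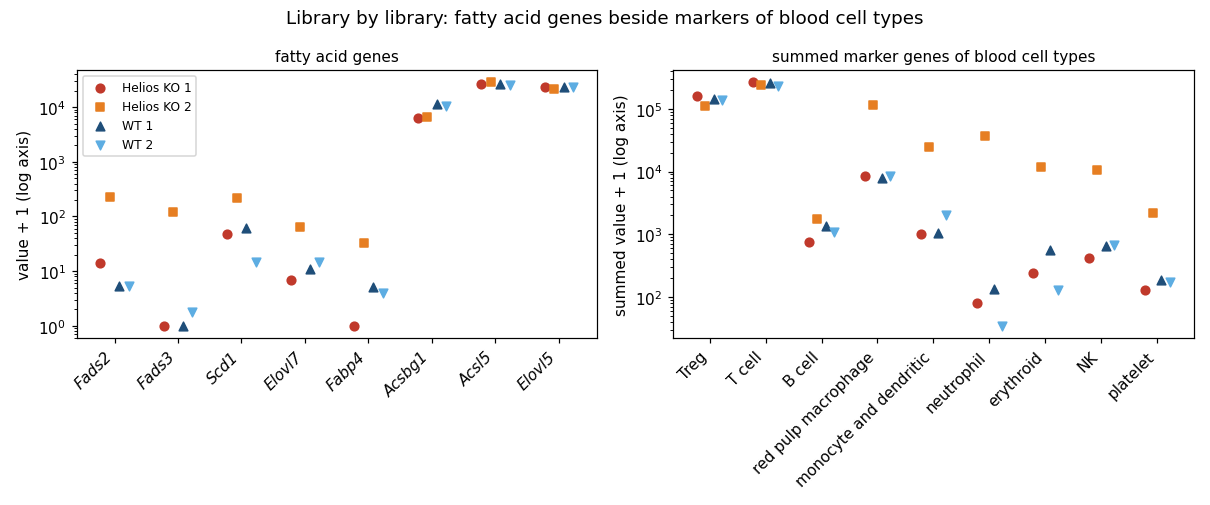
Values + 1 on log axes in each library for 8 fatty acid genes (left panel) and for summed marker genes of 9 cell types (right panel); circles and squares are Helios KO replicates 1 and 2, triangles are the WT libraries. The squares stand above all other libraries for Fads2, Fads3, Scd1, Elovl7 and Fabp4, as they do for the marker sums of macrophages, neutrophils, erythroid, NK and platelet cells, whereas Acsbg1 is similar in both Helios KO libraries.

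The knockout libraries differed at least 4-fold from each other in 4 tested members, Fads2, Scd1, Elovl7 and Slc27a2, and in 5.76% of all tested genes. The plot of each knockout library against the WT mean shows Acsbg1 and Acsl3 near the diagonal, Acadl with a larger difference in replicate 1, and Fads2, Scd1 and Elovl7 with a larger one in replicate 2. The WT libraries differed that much from each other in 1 tested member, Scd1, and in 0.847% of all tested genes.

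**Figure D5:**
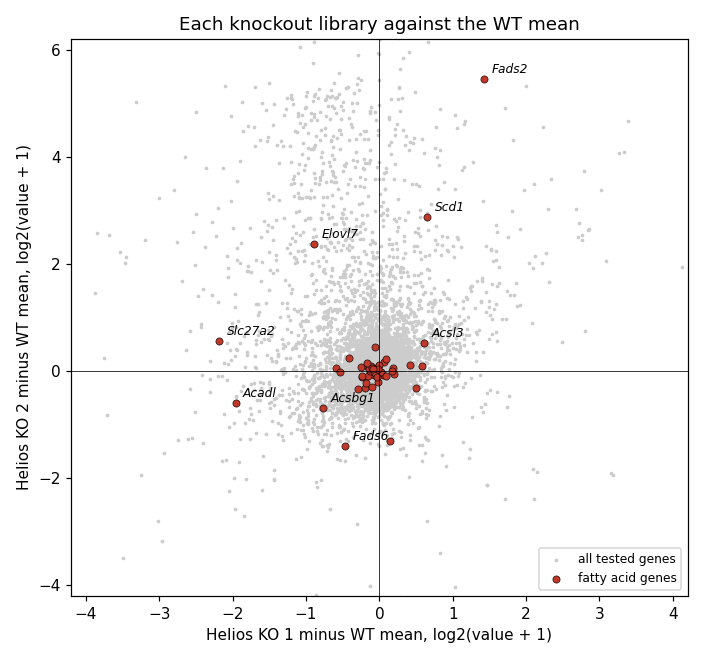
Difference from the WT mean on the log2(value + 1) scale in Helios KO replicate 1 (x axis) and replicate 2 (y axis), for all tested genes in grey (30 lie outside the plotted range) and the 49 tested fatty acid genes in red. Acsbg1 lies at -0.77 and -0.70, Acsl3 at 0.61 and 0.52, and Acadl at -1.96 and -0.59.

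Further genes that act beside these enzymes were taken from a list of 77, of which 75 were in the table and 68 were tested. None was called (0 of 68), 1 had an unadjusted limma p under 0.05, 7 lay above and 5 below both WT libraries in both knockout libraries, and the median log2 fold change was 0.04. The shares above and below were 10.3% and 7.35%, against 12.5% and 15.7% over all tested genes. The 4 with the smallest p were all higher in both knockout libraries. Lpin2, a phosphatidate phosphatase of triglyceride synthesis, was at 3669 and 3925 in the Helios KO libraries, against 3086 and 3303 in the WT libraries (log2 fold change 0.25 (SE 0.10)). Lipe, which encodes hormone-sensitive lipase, was at 804 and 834 in the Helios KO libraries, against 635 and 684 in the WT libraries (0.31 (SE 0.13)). Abhd5, the co-activator of adipose triglyceride lipase, was at 834 and 789 in the Helios KO libraries, against 617 and 696 in the WT libraries (0.31 (SE 0.13)), and Hsd17b12, the ketoreductase of the elongation cycle, was at 2416 and 2777 in the Helios KO libraries, against 2032 and 2377 in the WT libraries (0.24 (SE 0.13)). Their limma adjusted p was 1.00 each.

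Without Helios KO replicate 1, 8 genes of that list were called, and all 8 were higher in replicate 2 than in WT. In that fit 6.63% of all genes were called. In the fit without replicate 2, the log2 fold change was -0.53 for Pparg, -0.26 for Plin2 and -0.50 for Mgll. It was 0.41 for Hacd4 and 0.22 for Abcd2. The 8 genes were Pparg and Nr1h3, nuclear receptors of lipid metabolism, Lpl and Cd36, a lipoprotein lipase and a fatty acid receptor, and Plin2, Hacd4, Mgll and Abcd2. Cd36 was at 5.56 and 205 in the Helios KO libraries, against 6.98 and 12.5 in the WT libraries. Lpl was at 10.9 and 455 in the Helios KO libraries, against 15.5 and 27.8 in the WT libraries, and Nr1h3 at 63.5 and 748 in the Helios KO libraries, against 53.5 and 70.3 in the WT libraries. Without replicate 2 the log2 fold change was -0.87 for Lpl and 0.05 for Nr1h3, and Cd36 did not reach the filter. All 8 were called where replicate 2 was the only knockout library, so their distance from WT there was fixed by the choice. A likeness to the markers of any cell type was not tested. Of 3 genes of synthesis, Fasn and Srebf1 overlapped between the genotypes and Acaca did not. Fasn, the fatty acid synthase, was at 17746 and 16346 in the Helios KO libraries, against 20092 and 16258 in the WT libraries, and Srebf1, its transcriptional activator, at 11221 and 10226 in the Helios KO libraries, against 11902 and 8607 in the WT libraries. Acaca, which encodes acetyl-CoA carboxylase, was at 474 and 444 in the Helios KO libraries, against 493 and 494 in the WT libraries, lower in both knockout libraries (log2 fold change -0.10 (SE 0.14)), and did not pass the test.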

How the data were processed

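Poly(A) RNA of sorted CD4+CD25+ cells was amplified with a SMART-Seq kit and tagmented, per the labels' protocols, which does not mark strand. Build mm10 and bcl2fastq 2.17.1.14 come from the submitters' processing notes, and which aligner and counter were used is not given in the sources used here. Per the file headers, the authors normalised read counts and divided them by the median transcript length in kb, and such a signal value is not scaled to a common total. Multiplied by GENCODE M21 transcript lengths and divided by the worth of 1 read, 97.2% of 58026 nonzero values were whole within 0.01 read.

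Genes that reached a value of 10 in 2 or more libraries were tested with limma 3.58.1 (R 4.3.3) on log2(value + 1), with a variance trend and robust estimation, genotype as the only term, two-sided, and a Benjamini-Hochberg adjusted p under 0.05 over all tested genes. The pseudocount understates changes of low genes. The fit was tested on simulated data with 4-fold changes and even replicates. That does not show what it can detect for smaller changes or for knockout libraries as unlike as these. Sequences came from RefSeq (GRCm38.p6). The members and lists were chosen with earlier results of these data known. Genes named were Acsbg1, Acsl3, Acadl, members whose genotypes do not overlap (the 12 with smallest p in full), the highest member of each role, members differing 4-fold between knockout libraries, the 4 pathway genes with smallest p, and Ikzf2. Others were named after their values were seen. The result of 1 member is not reported here. Alternatives changed 1 choice at a time, except that the variance trend and robust estimation were dropped together and that limma-voom changed both the input values and the variance model.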

Additional observations from a re-analysis of the deposited data

How the results depend on the processing

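Under both rescalings, both other filters, both other pseudocounts, limma-voom, the fit without trend and robust estimation, and the replicate block, 0 members, 0 further pathway genes and 0 genes of the table were called. Without a low-value filter 8 members lay higher in both knockout libraries and 12 lay lower. No share over all genes is given for that setting, so neither count can be read as a result about the members. Both counts are over 69 members instead of 49, and those added to the higher ones were Acsl6, Fabp12 and Fabp3. Fabp12 had 1 to 3 recovered reads a library and Fabp3 had 3 in each, so they show no difference. Leaving out 1 library gave 0 to 3 called members, 0 to 8 called pathway genes, 0 to 758 called genes, 9 to 14 members above and 15 to 22 below WT in the remaining libraries (19.6% to 29.2% and 31.2% to 47.8%, against 26% to 36.5% and 28.6% to 36.6% of all tested genes), and a log2 fold change of Ikzf2 between -1.09 and -0.52. Ikzf2 was called (limma adjusted p of 0.0380) without Helios KO replicate 1 only. Without that library the 3 called members were Acadl, Acsbg1 and Elovl7 (2.37 on the log2 scale, against 0.74 with all libraries), and without Helios KO replicate 2 the 1 called member was Acadl. Fewer libraries make a non-overlap easier, and the cause of the added calls was not tested.

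Of 340 values of single genes under alternatives, 329 kept their direction and side of the threshold, 4 became called and 7 changed sign, all 7 when a library was left out and none of them called. These were Cpt1a, Slc27a2, Fabp5, Acot7 and Acadvl. Over the fits that leave out 1 library, the log2 fold change ran from -0.59 to 0.053 for Cpt1a, from -1.47 to 0.57 for Slc27a2, from -0.094 to 0.029 for Fabp5, from -0.088 to 0.094 for Acot7 and from -0.20 to 0.049 for Acadvl. Of 23 named members, 19 had a log2 fold change that changed over 1.5 times or in sign when 1 library was left out, and Acox3, Acsbg1, Acsl3 and Fads2 did not (Fads2 could be fitted only without a WT library). Same-numbered libraries deviated from their group means with a correlation of 0.11 over 11571 genes, which with 2 numbers does not show a pairing, and the replicate block gave 0 called genes, as the fit without it did. Over alternatives, the adjusted p of Acsbg1 lay between 0.0205 and 1.00. Members with values below about 10 per kb rest on few reads, so that differences there were not detectable at this depth.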
